A study of Mus musculus with 2 samples.

Results

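Transcripts of 10 genes of the interleukin-1 (IL-1) family and of the inflammasome were followed through the neutrophil stages, monocytes and macrophages of mouse bone marrow, out of 32286 features in the deposited count matrices. The genes were taken by symbol and all 10 were found: the ligands Il1b, Il1f9 and Il18, the antagonist Il1rn, the decoy receptor Il1r2, and the inflammasome genes Nlrp3, Pycard, Casp1, Casp4 and Gsdmd. Primary bone marrow hematopoietic cells were sequenced from the 3′ end of transcripts in droplets, with 1 library per genotype. Control marrow came from Mx1Cre+/-;Rosa26+/+ and the other, here MYC marrow, from Mx1Cre+/-;Rosa26LSL-MYC/LSL-MYC, so that the Cre allele is common to both. Mx1-Cre is driven by an interferon-inducible promoter, and the LSL cassette keeps a transgene silent until Cre removes it. The series set out to compare marrow expression after MYC overexpression in stem cells. Age, sex, how Cre was induced and the number of mice behind a library are not given in the sources used here. With 1 library per genotype there is no replicate check, no test was run, and genotype and library cannot be told apart.

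IL-1β is made as an inactive precursor after innate immune stimulation and is cut to its active form by caspase-1. Caspase-1 is activated in inflammasomes, in which a sensor such as NLRP3 recruits the adaptor ASC (encoded by Pycard). Caspase-1 also cuts gasdermin D (Gsdmd), whose fragment opens pores that let the cytokine out, while caspase-11 (encoded by Casp4 in the mouse) cuts gasdermin D after sensing bacterial lipopolysaccharide in the cytosol. Outside the cell IL-1β is restrained by the receptor antagonist (Il1rn), which occupies the signalling receptor, and by the type 2 receptor (Il1r2), which binds the ligand without signalling. Neutrophils are a known source of all 3, and transcripts say nothing of the cut or secreted protein.

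The 2 libraries held 131884603 and 110012176 unique molecular identifiers (UMIs, one tag per captured transcript) in control and MYC marrow. After filters 14760 control cells and 12645 cells of MYC marrow were kept, with medians of 5321.5 and 6014 UMIs per cell. The feature named MYC had 0 UMIs in control marrow and 295 in MYC marrow. In all, 97 barcode sequences occurred in both libraries. Doublets were called for 701 barcodes (4.53%) of control marrow and 251 (1.95%) of MYC marrow, below the 13.7% and 11.6% expected from loading, so some may remain. Cells were clustered without the 10 genes and clusters were named from marker lists, giving 550 and 484 granulocyte progenitors (control and MYC), 3267 and 2900 immature neutrophils, 2958 and 2541 mature neutrophils, 1463 and 1782 monocytes and 128 and 70 nonclassical monocytes. Macrophage markers defined 2 clusters: cluster 19, led by the complement genes C1qa, C1qb and C1qc, held 19 control cells and 644 of MYC marrow, so it may be 1 library rather than a type, and cluster 26, led by Mrc1 and Cd5l, held 55 and 33 cells. The UMIs of all cells in a class were added and expressed per 1000000 UMIs of that class (CPM). Ranges in parentheses are 95% intervals that cover counting error only. Cells of the B lineage, 1222 and 252 with medians of 5209.5 and 5475.5 UMIs, served as the reference for free RNA in droplets.

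The start regions of 3 genes are shown as examples of the 3 patterns in mature neutrophils: the ligand Il1b, which was lower in MYC marrow, its decoy Il1r2, which differed little, and the adaptor Pycard, which was higher. RefSeq entries on GRCm38.p6 were found for 9 of the 10 genes, and the 250 bases before a start site are given 5′ to 3′ on the coding strand. Capitals mark any of 6 motifs, each searched on both strands: CACGTG (the E-box core that MYC with MAX can bind), TATAAA, GAGGAAGT (an Ets core bound by PU.1), TTGCNNAA (C/EBP), TGANTCA (AP-1) and the NF-kB motif. The Il1b window is chr2:129371140-129371389 (minus strand), that of Il1r2 chr1:40085843-40086092 (plus strand), and that of Pycard chr7:127993868-127994117 (minus strand).
Il1b: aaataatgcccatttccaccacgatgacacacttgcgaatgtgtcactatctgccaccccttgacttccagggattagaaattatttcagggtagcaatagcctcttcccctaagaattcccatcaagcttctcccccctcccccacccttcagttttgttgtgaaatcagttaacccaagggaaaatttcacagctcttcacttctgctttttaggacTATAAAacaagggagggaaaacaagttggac
Il1r2: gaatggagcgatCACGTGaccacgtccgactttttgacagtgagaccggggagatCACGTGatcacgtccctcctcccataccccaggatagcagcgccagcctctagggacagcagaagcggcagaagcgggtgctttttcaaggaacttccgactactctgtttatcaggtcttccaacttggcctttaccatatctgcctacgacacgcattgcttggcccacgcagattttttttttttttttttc
Pycard: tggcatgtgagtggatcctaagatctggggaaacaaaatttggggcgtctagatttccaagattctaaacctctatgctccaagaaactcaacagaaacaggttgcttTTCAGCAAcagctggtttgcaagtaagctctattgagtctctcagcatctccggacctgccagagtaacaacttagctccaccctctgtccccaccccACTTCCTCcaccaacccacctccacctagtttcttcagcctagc
Among 32544 distinct windows of this length, TATAAA occurred in 12.3%, and in Il1b it lay at position -31 from the start site. CACGTG occurred in 6.03% of windows and was found at -238 and -195 in Il1r2 but not in the Il1b or Pycard windows. Pycard had the Ets core, present in 2.46% of windows, at -44 and the C/EBP motif, present in 9.58%, at -142. TGANTCA (6.73% of windows) and the NF-kB motif (7.28%) were in none of the 3. A match is only a run of letters, and its absence says nothing of the factor.

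Il1b was a transcript of mature neutrophils in both libraries, and it was lower there in MYC marrow. The gene lies on chromosome 2 (129364570 to 129371139, minus strand, GRCm38). Mature neutrophils held 86.4% of all Il1b UMIs of control marrow and 81.6% of those of MYC marrow. Their level was 691 CPM in control marrow (7544 UMIs) and 279.6 CPM in MYC marrow (3576 UMIs), a log2 ratio of -1.30 (-1.36 to -1.25). Granulocyte progenitors (6.59 and 5.79 CPM) and immature neutrophils (6.30 and 2.45 CPM) stood no higher than the B lineage (8.63 and 6.58 CPM). By this measure Il1b in these stages cannot be told from free RNA. Granulocyte progenitors were deeper, with medians of 19224 and 18746 UMIs against 5209.5 and 5475.5 in the B lineage. A like CPM there is thus not a like number of UMIs per cell. Monocytes had 16.0 CPM in control marrow and 5.59 CPM in MYC marrow, a log2 ratio of -1.52 (-1.81 to -1.24), and the second value is at the B-lineage level. Few monocytes carried these UMIs: the richest 1% of cells held 49.7% of them in control marrow and 60.8% in MYC marrow. With each cell thinned to 2000 UMIs, 2.77% and 0.737% of monocytes had an Il1b UMI, against 1.72% and 0.909% of B-lineage cells. Nonclassical monocytes stood above both, with 47.9 CPM (33 UMIs) and 34.4 CPM (17 UMIs), and their log2 ratio of -0.48 had an interval that included 0 (-1.41 to 0.41). After thinning 6.67% of 120 and 13.4% of 67 of these cells had an Il1b UMI.

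**Figure D1:**
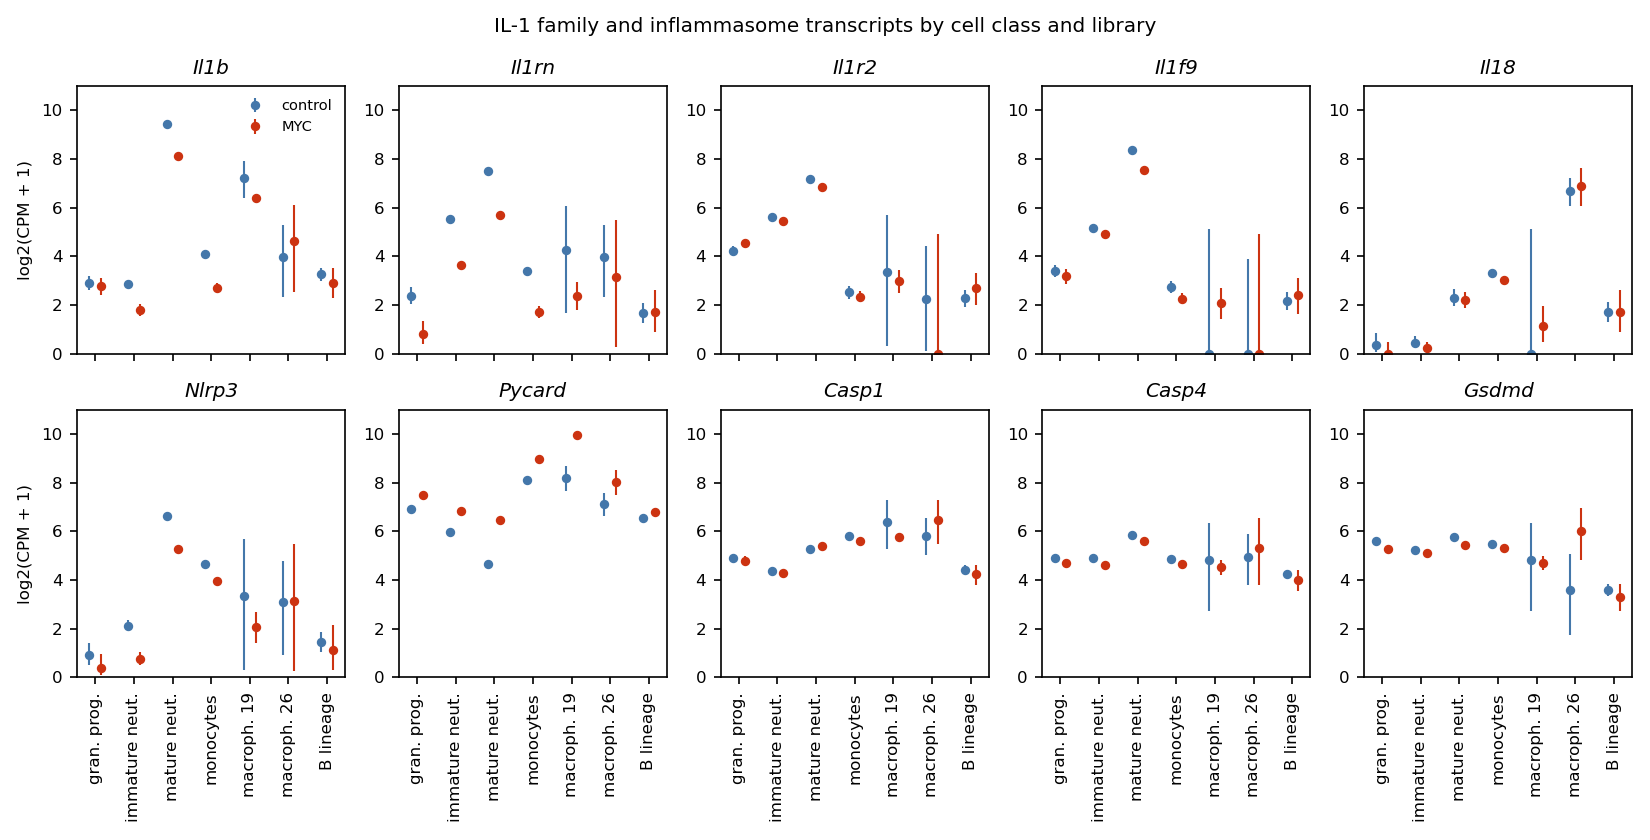
Level of each of the 10 genes, as log2(CPM + 1), in 7 cell classes or clusters (x axis) of control (blue) and MYC (red) marrow, with 95% counting intervals as bars. Il1b, Il1rn, Il1r2, Il1f9 and Nlrp3 peak in mature neutrophils among the neutrophil stages, Pycard is lowest there, and Il18 stands highest in macrophage cluster 26.

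The lower Il1b of mature neutrophils went with a different make-up of that class. Of its 4 clusters, cluster 3 (led by Ptgs2, Il1b, Fgl2 and Csf3r) held 53.1% of the mature cells of control marrow and 7.60% of those of MYC marrow, while cluster 2 (led by Cstdc4, Cxcl2 and Stfa2l1) held 6.86% and 54.1%. Cluster 0, led by Retnlg, Mmp8 and Mmp9, held 30.2% and 36.3%, and cluster 12, led by interferon-induced genes such as Ifit1 and Ifit3, held 9.84% and 2.05%. Within cluster 3 Il1b stood at 1196 CPM in control marrow and 1283 CPM in MYC marrow (log2 ratio 0.10, -0.00087 to 0.20), and within cluster 2 at 409 and 378 CPM (-0.11, -0.28 to 0.06). In these 2 clusters the libraries overlapped within counting error. Each was drawn mostly from 1 library: cluster 2 held 203 control cells and 1374 of MYC marrow, and cluster 3 held 1572 and 193. The libraries were clustered together without alignment, so these clusters may be libraries rather than cell states. Make-up and library cannot be told apart here. Il1b was not among the genes used for clustering. Il1b in cluster 0 was lower in MYC marrow, with 52.5 against 14.0 CPM (-1.91, -2.32 to -1.52). The second value is near the B lineage, since at 2000 UMIs 1.61% of these cells had an Il1b UMI against 0.909% of B-lineage cells. It was also lower in cluster 12, with 805 against 283 CPM (-1.51, -1.84 to -1.19). Giving both libraries the same mix of clusters, an alternative chosen after seeing the data, left 490.2 and 456 CPM, a log2 ratio of -0.10. Cells with at least 1000 UMIs and 500 genes, clustered anew, gave -0.58 for the whole class, and the direction was lower in each alternative tried.

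**Figure D2:**
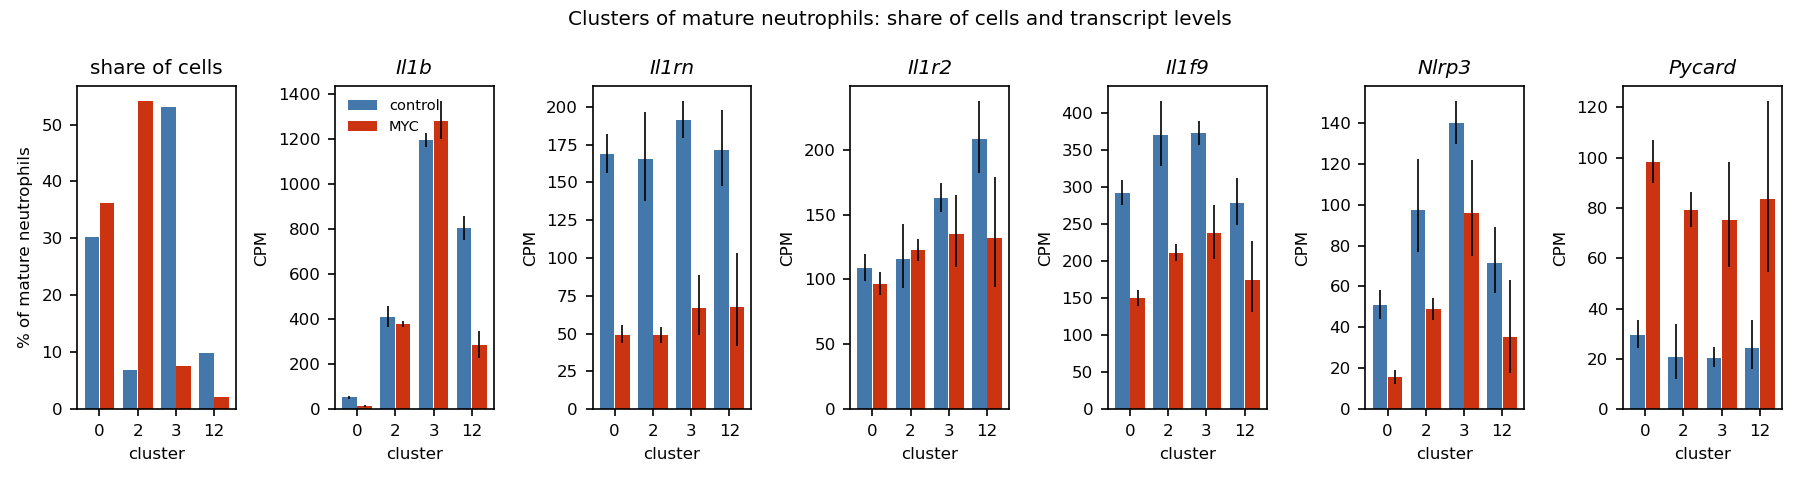
Left panel: percent of mature neutrophils in each of 4 clusters (x axis) in control (blue) and MYC (red) marrow. Other panels: CPM of 6 genes in the same clusters, with 95% counting intervals. Il1b overlaps between libraries in clusters 2 and 3, whereas Il1rn is lower and Pycard higher in MYC marrow in each of the 4.

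Shares of mature neutrophils with an Il1b UMI showed the same dependence on which cells were counted. Without thinning, 50.6% of control cells and 32.1% of cells of MYC marrow had 1, at median depths of 3550.5 and 4940 UMIs. Thinned to 2000 UMIs (2645 and 2295 cells), the shares were 43.2% and 25.1%. Thinned to 4000 UMIs, which leaves out the shallower cells, they were 25.7% and 24.8%, a difference of -0.88 percentage points (-4.28 to 2.46). Cluster 3 was the shallowest of the 4, with medians of 3179 and 3643 UMIs. Cells with at least 5 Il1b UMIs made up 20.6% of mature neutrophils in control marrow and 10.9% in MYC marrow, and the richest 10% of cells held 49.6% and 65.6% of the UMIs. Markers of neighbouring stages moved with these values: in mature neutrophils of MYC marrow 7 of 8 mature markers were lower although their summed level went from 33277 to 40401 CPM, carried by Retnlg, and 6 of 7 immature markers were higher (16245 to 28007 CPM in sum). No marker of either list was at 0, and their part in the result was not tested.

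The antagonist Il1rn (chromosome 2, 24336853 to 24351494, plus strand) was lower in MYC marrow at every neutrophil stage and in every mature cluster. Unlike Il1b it was already clearly present in immature neutrophils, which held 34.9% of its UMIs in control marrow and 29.5% in MYC marrow. Immature neutrophils had 44.9 CPM in control marrow and 11.5 CPM in MYC marrow (log2 ratio -1.97, -2.14 to -1.79), and mature neutrophils had 179 and 50.5 CPM (-1.83, -1.96 to -1.70). The 4 mature clusters of control marrow lay between 165 and 191 CPM and those of MYC marrow between 48.9 and 67.5 CPM, with no overlap, and the ratios ran from -1.78 to -1.34. With the same mix of clusters the ratio was -1.67. After thinning to 2000 UMIs 29.3% and 9.85% of mature neutrophils had an Il1rn UMI, against 0.516% and 0 of 220 B-lineage cells (which allows up to 1.36%). Monocytes had 9.46 and 2.30 CPM (-2.04, -2.48 to -1.62), and the lower value is that of the B lineage (2.18 and 2.32 CPM). Granulocyte progenitors had 47 and 7 UMIs, or 4.24 and 0.764 CPM, near that level too. Stage markers differed within these classes. In immature neutrophils of MYC marrow all 8 mature markers were lower (5896 to 3974 CPM in sum), as were 5 of 7 immature markers (120918 to 107119 CPM). In cluster 0 all 7 immature markers were higher (27735 to 45393 CPM) and 7 of 8 mature markers lower (39097 to 35365 CPM). Their part in the result was not tested.

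The decoy receptor gene Il1r2 (chromosome 1, 40074079 to 40125231, plus strand) differed little between the libraries. It increased along the lineage in both: granulocyte progenitors had 17.6 and 22.3 CPM, immature neutrophils 47.8 and 42.5 CPM, and mature neutrophils 145 and 113 CPM in control and MYC marrow. The log2 ratio was -0.36 (-0.46 to -0.25) in mature neutrophils. In 3 of the 4 mature clusters its interval included 0, and it was -0.66 (-1.18 to -0.18) in cluster 12. In immature neutrophils it was -0.17 (-0.28 to -0.06) but 0.033 with median-of-ratios scaling, so its direction there depends on the scaling. In granulocyte progenitors it was 0.34 (0.05 to 0.63), a value that became -0.18 among cells under 5% mitochondrial UMIs. Monocytes had 4.73 and 4.09 CPM, near the B lineage (3.83 and 5.42 CPM).

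The balance of ligand, antagonist and decoy transcripts in mature neutrophils differed between the libraries. UMI counts from transcript ends are not scaled to gene length, and a balance is given here as UMIs of the first gene per UMI of the second in the same cells. Mature neutrophils had 3.85 Il1b UMIs per Il1rn UMI in control marrow and 5.54 in MYC marrow, a log2 change of 0.52 (0.38 to 0.67). Per Il1r2 UMI they had 4.77 and 2.47 Il1b UMIs (-0.95, -1.07 to -0.83). The ligand was thus more abundant relative to the antagonist and less abundant relative to the decoy. Over the whole class the order of the 2 restraining transcripts was turned around. There were 1.24 Il1rn UMIs per Il1r2 UMI in control marrow and 0.447 in MYC marrow (-1.47, -1.64 to -1.30). Among the mature clusters this change ran from -1.84 in cluster 2 to -0.68 in cluster 12, where the interval included 0 (-1.57 to 0.17). Among cells with at least 1000 UMIs and 500 genes the ligand to antagonist change was 1.14 and the ligand to decoy change -0.40.

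Single mature clusters differed in these balances. In cluster 2 the Il1b UMIs per Il1rn UMI were 2.47 in control marrow and 7.73 in MYC marrow (log2 change 1.64, 1.29 to 1.99), and in cluster 3 they were 6.25 and 19.2 (1.62, 1.18 to 2.08). In cluster 12 they were 4.70 and 4.19 (-0.17, -0.91 to 0.63). The log2 change in cluster 0 was -0.13 (-0.60 to 0.32), so the higher balance was seen in clusters 2 and 3 only. The decoy balance, Il1b per Il1r2, was 3.53 and 3.09 in cluster 2 (-0.19, -0.57 to 0.17), 7.34 and 9.48 in cluster 3 (0.37, 0.05 to 0.70), 0.484 and 0.145 in cluster 0 (-1.74, -2.19 to -1.30) and 3.86 and 2.15 in cluster 12 (-0.85, -1.44 to -0.23). With the same mix of clusters the ligand to antagonist change was 1.56 and the ligand to decoy change 0.059. Within single clusters the ligand to decoy balance was thus lower in clusters 0 and 12 and not in clusters 2 and 3. The lower balance of the whole class (-0.95) was not seen with the same mix, so it went with the shares of the clusters. The Il1b term of MYC marrow was near the level of free RNA in cluster 0, so the size of its change is uncertain. In immature neutrophils and monocytes it was at that level, and their balances are not read.

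**Figure D3:**
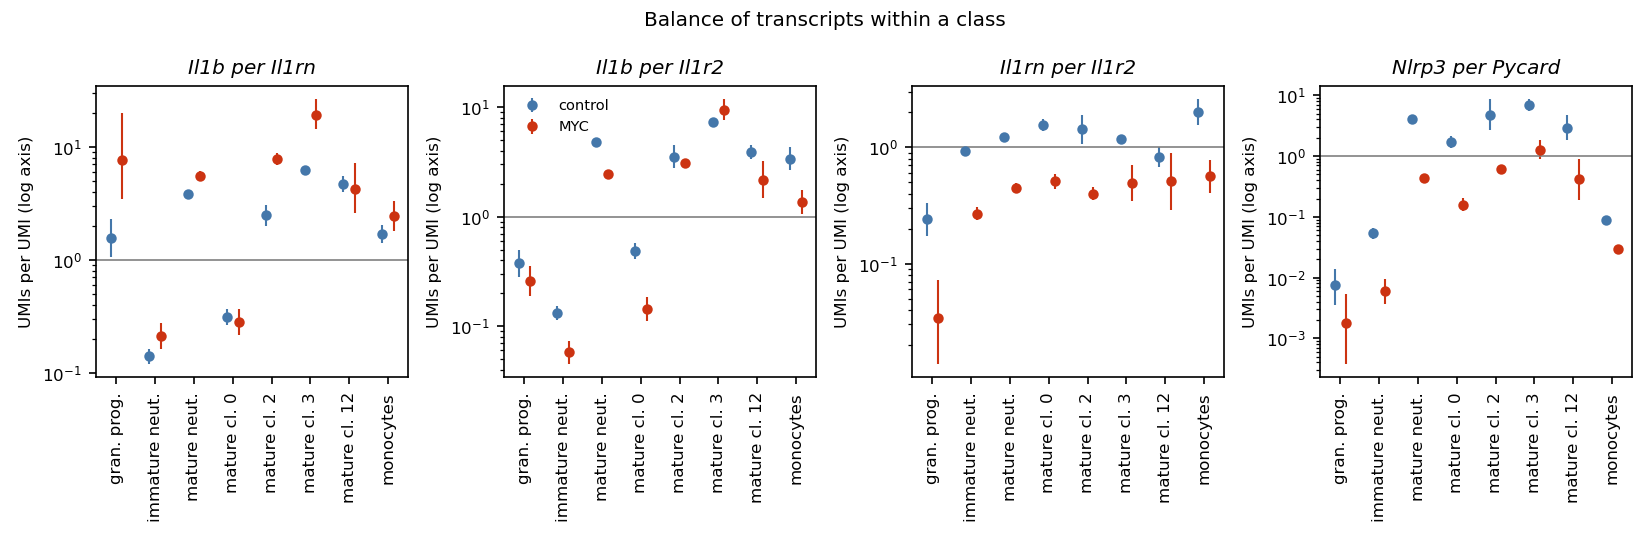
UMIs of the first gene per UMI of the second (log axis) in neutrophil stages, the 4 mature clusters and monocytes of control (blue) and MYC (red) marrow, with 95% counting intervals. The grey line marks 1. Il1b per Il1rn is higher in MYC marrow in mature clusters 2 and 3, while Nlrp3 per Pycard is lower in monocytes. Pycard in mature neutrophils of control marrow is at the level of free RNA, so that balance is not read there.

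Ligand and restraining transcripts met in the same mature neutrophils at shares at or a little above the product of their separate shares. At 2000 UMIs per cell, Il1b and Il1r2 were found together in 12.6% of control cells and 6.23% of cells of MYC marrow, and the product of their shares was 10.7% and 4.99%. With Il1b and Il1rn the joint share was 12.4% and 2.88%, and the product 12.6% and 2.47%. Among mature neutrophils with an Il1b UMI, 28.8% of control marrow and 11.5% of MYC marrow also had an Il1rn UMI, while 29.2% and 24.8% also had an Il1r2 UMI. Cells with Il1b but no Il1rn UMI made up 30.7% and 22.2%. These shares describe UMIs found at this depth and not cells that express the genes.

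The IL-36γ gene Il1f9 (chromosome 2, 24186476 to 24193568, plus strand), an IL-1 family ligand that signals through another receptor, was lower in mature neutrophils of MYC marrow, and unlike Il1b it was lower in each of their clusters. Mature neutrophils had 334 CPM in control marrow and 187 CPM in MYC marrow (log2 ratio -0.84, -0.91 to -0.76). The cluster ratios ran from -0.96 to -0.65, and the same mix of clusters gave -0.81. Immature neutrophils had 34.9 and 29.5 CPM (-0.24, -0.38 to -0.11), a direction that did not hold in clusters 5 and 7: cluster 5, led by Chil3, Fcnb and Camp, had 6.46 and 9.99 CPM (0.63, 0.26 to 1.01) and cluster 7 had 7.02 and 13.8 CPM (0.98, 0.26 to 1.72). Of the immature neutrophils it was cluster 1, led by Thbs1, AA467197 and Ltf, that held most Il1f9 UMIs, at 83.7 and 73.8 CPM (-0.18, -0.33 to -0.04). The class value became 0.71 among cells with at least 1000 UMIs and 500 genes and 0.69 when each library was clustered on its own.

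Il18, whose product is cut by caspase-1 like IL-1β but whose transcript many cells keep at a low level without stimulation, had its highest levels in monocyte cluster 9 and macrophage cluster 26. Monocytes held 54.7% and 62.9% of its 316 and 310 UMIs, at 8.89 CPM in control marrow and 7.12 CPM in MYC marrow (log2 ratio -0.32, -0.62 to -0.02). Within monocytes, cluster 9, led by S100a4, Fn1 and Ccr2, had 18.1 and 17.6 CPM, and cluster 10, led by Lgals1 and F13a1, had 3.30 and 2.96 CPM, with both ratios (-0.05 and -0.16) overlapping 0. The lower class value thus went with the share of cluster 10, which held 670 of control monocytes and 1040 of those of MYC marrow. Macrophage cluster 26 had 100.8 CPM (27 UMIs) and 118 CPM (15 UMIs), whereas cluster 19 of MYC marrow had 1.23 CPM (5 UMIs). When each library was clustered on its own the monocyte ratio was 0.32. Mature neutrophils had 3.94 and 3.6 CPM, which like monocyte cluster 10 is near the B lineage (2.27 and 2.32 CPM), and immature neutrophils had 11 and 5 UMIs in all.

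Nlrp3, the sensor (chromosome 11, 59541568 to 59566956, plus strand), and Pycard, the adaptor (chromosome 7, 127989708 to 127993867, minus strand), differed between the libraries in opposite directions in mature neutrophils and in monocytes. Nlrp3 in mature neutrophils was 98.1 CPM in control marrow and 37.8 CPM in MYC marrow (log2 ratio -1.38, -1.53 to -1.22). It was lower in each mature cluster, with ratios from -1.71 in cluster 0 to -0.54 in cluster 3, and -0.92 with the same mix. Cluster 3 was the highest in both libraries (140.0 and 96.2 CPM). Monocytes had 24.6 and 14.8 CPM (-0.74, -0.93 to -0.54). Immature neutrophils had 98 and 20 UMIs, or 3.35 and 0.691 CPM, against 1.74 and 1.16 CPM in the B lineage, so MYC marrow was at background there.

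Pycard was higher in MYC marrow in each neutrophil stage, in monocytes and in macrophages. Granulocyte progenitors had 121 CPM in control marrow and 180.2 CPM in MYC marrow (log2 ratio 0.57, 0.47 to 0.68), immature neutrophils 62.1 and 115 CPM (0.88, 0.80 to 0.97), and mature neutrophils 24.1 and 86.7 CPM (1.85, 1.65 to 2.05). The level thus decreased with maturation in both libraries. Mature neutrophils stood at a log2 ratio of -2.33 (-2.53 to -2.14) to granulocyte progenitors in control marrow and at -1.06 (-1.17 to -0.94) in MYC marrow. Free RNA limits the mature levels, as given next, so the difference between these 2 ratios is not read. In both libraries the mature level was below that of the B lineage (94.2 and 111 CPM), which has more Pycard than several classes, so erythroid cells, the lowest class apart from mature neutrophils, are given too. Their level was 26.1 CPM in control marrow, where mature neutrophils cannot be told from free RNA, and 48.7 CPM in MYC marrow, where mature neutrophils were higher than erythroid cells but not than the B lineage. The 4 mature clusters had 20.3 to 29.6 CPM in control marrow and 75.3 to 98.2 CPM in MYC marrow, with no overlap and ratios from 1.73 to 1.93. After thinning to 2000 UMIs, 4.61% and 15.2% of mature neutrophils had a Pycard UMI, against 3.95% and 7.03% of erythroid cells and 12.6% and 17.7% of B-lineage cells. Markers of monocytes, the class with more Pycard, moved with it in mature neutrophils, where 7 of 8 were higher in MYC marrow (793 to 934 CPM in sum). In immature neutrophils 6 of 8 were higher, although their sum was 927 and 918 CPM. None was at 0 and their part in the result was not tested.

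Monocytes had more Pycard than any neutrophil stage, 273 CPM in control marrow and 498 CPM in MYC marrow (log2 ratio 0.87, 0.82 to 0.91). At 2000 UMIs per cell 40.7% and 59.5% of monocytes had a Pycard UMI. The ratio was 1.17 in monocyte cluster 9 and 0.72 in cluster 10, and nonclassical monocytes had 79.8 and 172 CPM (1.11, 0.60 to 1.62). One abundant feature, Gm42418, took 144209 CPM of control monocytes and 63350 CPM of those of MYC marrow, and without it in the denominator the Pycard ratio was 0.74. The class differed in its markers too, as all 8 monocyte markers were lower in MYC marrow (6445 to 4800 CPM in sum, none at 0), whose part was not tested. Other cells also had higher Pycard: B-lineage cells had 94.2 and 111 CPM (0.24, 0.05 to 0.43), erythroid cells a ratio of 0.90 (0.70 to 1.09) and T cells 1.03 (0.72 to 1.34). Sensor and adaptor together gave 0.0903 Nlrp3 UMIs per Pycard UMI in monocytes of control marrow and 0.0296 in those of MYC marrow (log2 change -1.61, -1.81 to -1.41). The same balance is not read in mature neutrophils, where Pycard of control marrow is at the level of free RNA.

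The proteases and the pore protein differed far less. Casp1 in mature neutrophils was 37.7 CPM in control marrow and 41.6 CPM in MYC marrow (log2 ratio 0.14, -0.05 to 0.33), and it was 0.79 (0.26 to 1.30) in cluster 3 and 0.91 (0.27 to 1.53) in cluster 12. In monocytes it was 55.2 and 48.2 CPM (-0.20, -0.31 to -0.08). Casp4, which lies next to Casp1 on chromosome 9 (5308828 to 5336783, after Casp1 at 5298517 to 5307265, both on the plus strand), had 56.6 and 48.4 CPM in mature neutrophils (-0.23, -0.39 to -0.06) and 28.4 and 24.3 CPM in monocytes (-0.22, -0.39 to -0.06). It was highest in the interferon-gene cluster 12, with 112 and 89.97 CPM, where Casp1 was also highest among mature clusters (58.0 and 109 CPM). In immature neutrophils Casp1 had 20.02 and 18.9 CPM, close to the B lineage (20.7 and 17.8 CPM) and above erythroid cells (2.39 and 4.95 CPM).

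Gsdmd (chromosome 15, 75862327 to 75867408, plus strand) had 52.9 and 42.1 CPM in mature neutrophils (log2 ratio -0.33, -0.50 to -0.16), 47.6 and 38.2 CPM in granulocyte progenitors (-0.32, -0.52 to -0.12) and 43.9 and 38.6 CPM in monocytes (-0.19, -0.32 to -0.05). Of these 3 genes none passed a 1.5-fold difference in mature neutrophils or monocytes. The values are also close to the shift of all genes, since median-of-ratios scaling subtracted an offset of -0.22 in mature neutrophils and -0.14 in monocytes, which raised every log2 ratio. With that scaling Casp4 stood at -0.01 and Gsdmd at -0.11 in mature neutrophils, and Casp1, Casp4 and Gsdmd between -0.08 and -0.04 in monocytes. When each library was clustered on its own, the monocyte ratios of Casp4 and Gsdmd turned to 0.062 and 0.070. Il1b, Il1rn, Il1f9, Nlrp3 and Pycard kept their direction in mature neutrophils under this scaling. Casp4 in mature neutrophils was 0.026 among cells with at least 1000 UMIs and 500 genes.

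**Figure D4:**
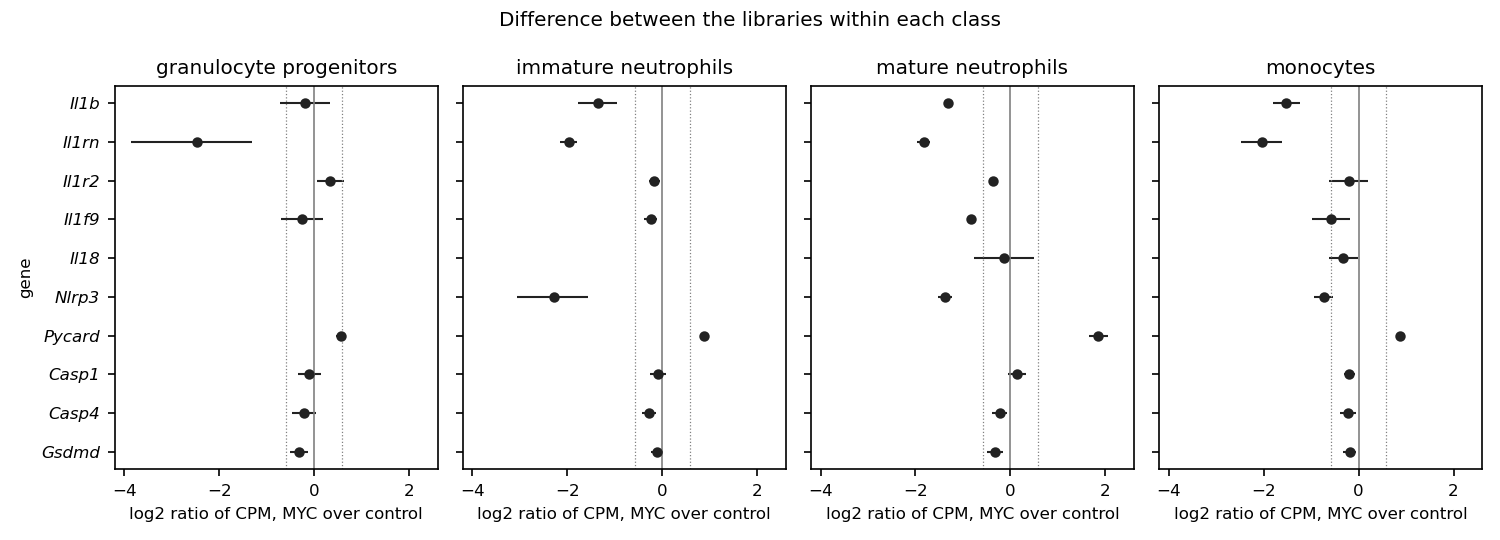
Log2 ratio of CPM, MYC over control marrow (x axis), for each gene (y axis) with at least 50 UMIs in a class, with 95% counting intervals. Dotted lines mark a 1.5-fold difference. Il1b, Il1rn, Il1f9 and Nlrp3 lie left of it in mature neutrophils and Pycard right of it, whereas Casp1, Casp4 and Gsdmd stay between the lines there and in monocytes.

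Macrophages held a larger part of the Il1b transcripts in MYC marrow. Cluster 19 of that library held 337 Il1b UMIs at 83.0 CPM. After thinning to 2000 UMIs 11.1% of 487 of its cells had an Il1b UMI, against 0.909% of B-lineage cells, and 17.5% of all 644 cells had one without thinning, against 1.98%, at medians of 6197 and 5475.5 UMIs. Together the macrophages held 7.76% of Il1b UMIs of MYC marrow and 0.229% of those of control marrow, alongside 74 control macrophages and 677 in MYC marrow. The 19 control cells of the cluster had 16 Il1b UMIs, or 147 CPM, and the interval of the log2 ratio included 0 (-0.82, -1.54 to 0.0042). In the same cells of MYC marrow the antagonist had 17 UMIs (4.19 CPM), the decoy 28 UMIs (6.90 CPM) and Nlrp3 13 UMIs (3.2 CPM). Of the classes and clusters measured, Pycard was highest there, with 986 CPM (4000 UMIs), against 293 CPM (32 UMIs) in the control cells, a log2 ratio of 1.75 (1.25 to 2.30). Casp1 had 53.2 CPM in that cluster of MYC marrow, so that 0.0540 Casp1 UMIs were found per Pycard UMI, against 0.0968 in monocytes and 0.480 in mature neutrophils of that library. Cluster 26 of MYC marrow had 3 Il1b UMIs.

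A difference of 1.5-fold on the log2(CPM + 1) scale, for genes with at least 50 UMIs in a class, was used to set the 10 genes against all others. In mature neutrophils 4 of 10 (Il1b, Il1rn, Il1f9 and Nlrp3) were lower in MYC marrow, where 21% of all 8768 genes were, and 1 (Pycard) was higher, where 7.74% were. Pycard of control marrow was at the level of free RNA there, so the size of that difference is uncertain. Their median log2 ratio was -0.34 and that of all genes -0.20. In monocytes 3 of 10 (Il1b, Il1rn and Nlrp3) were lower (13.3% of all genes) and 1 higher (7.31%), with medians of -0.25 and -0.13. Il1b and Il1rn of MYC marrow were at the level of free RNA there, so the size of these 2 differences is uncertain. Of the 9 counted in immature neutrophils 3 (Il1b, Il1rn and Nlrp3) were lower (13.3%) and 1 higher (6.56%), with medians of -0.24 and -0.18. Of these 3, Il1b in both libraries and Nlrp3 in MYC marrow were at the level of free RNA, so the size of these differences is uncertain. Among the 8 counted in granulocyte progenitors 1, Il1rn, was lower (23.9%) and 0 were higher (3.86%), with Il1rn near the level of free RNA. Nonclassical monocytes had 4 of the genes at this count, of which 1 (Casp1, 72.6 and 46.5 CPM, log2 ratio -0.64, -1.42 to 0.10) was lower (18% of all genes) and 1 (Pycard) was higher (13.9%).

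A wider list of 58 other genes of IL-1 and IL-18 reception, their signal relay and inflammasomes, 55 of them among the features, were more often lower than higher, as were all genes. In mature neutrophils 12 of 38 counted (31.6%) were lower in MYC marrow, against 21% of all genes, and 1 was higher, with medians of -0.41 and -0.20. In monocytes 10 of 44 (22.7%) were lower, against 13.3%, and 2 were higher, with medians of -0.37 and -0.13. Immature neutrophils had 5 of 40 (12.5%) lower, against 13.3%, and 2 higher, while granulocyte progenitors had 14 of 39 (35.9%) lower, against 23.9%, and 1 higher. The thioredoxin-binding protein gene Txnip was lower in mature neutrophils (569 to 247 CPM, log2 ratio -1.20, -1.27 to -1.14) and in monocytes (164 to 87.8 CPM, -0.90). Relay genes lower in both classes were Tab2, an adaptor of the TAK1 kinase (-0.83 in mature neutrophils and -0.68 in monocytes), and Nfkb1, an NF-kB subunit (-0.61 and -0.75). Irak3, an inhibitor of the receptor-associated kinases, was lower in mature neutrophils (61.4 to 39.2 CPM, -0.65).

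Among sensors and their partners, Nlrp12 was lower in mature neutrophils (100.4 to 60.4 CPM, log2 ratio -0.73), as was Ninj1, which ruptures the membrane of dying cells (72.8 to 47.1 CPM, -0.63). In monocytes Nek7, an NLRP3 partner, was lower (70.3 to 43.1 CPM, -0.71), and so was the flagellin sensor gene Naip5 (28.1 to 11.03 CPM, -1.35), as were its relative Naip6 (-0.96) and the receptor-associated kinase gene Irak2 (-0.94). Higher were 2 genes. Serpinb1a, which encodes an inhibitor of neutrophil serine proteases, went from 103 to 268 CPM in mature neutrophils (1.38, 1.28 to 1.47) and from 91.7 to 143 CPM in monocytes (0.64), and Card19 from 67.4 to 111 CPM in monocytes (0.72, 0.62 to 0.81). Other inducible genes, chosen after their values were seen, went in both directions in mature neutrophils. The log2 ratio was -1.35 for Isg15, -1.96 for Ifit1 and -2.91 for Ptgs2, but 2.04 for Cxcl2 (134 to 552 CPM), while Fos (-0.15) and Jun (-0.12) were nearer to 0. Cxcl2 in monocytes was 2.11 and 10.8 CPM (2.36, 1.89 to 2.87). Their part in the result was not tested.

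Over 27 points, each a class in 1 library with at least 50 cells, the genes whose log2(CPM + 1) followed Il1b most closely among 12007 were Dusp1, a phosphatase of MAP kinases (a coefficient of 0.91 by Pearson's r), Vnn3 (0.88), Trpm2 (0.82), Gk (0.81) and Gm34455 (0.80). Pycard was followed by Clta, a clathrin light chain (0.84), Rnh1, a ribonuclease inhibitor (0.81), AI413582 (0.80), Pold4 (0.80) and Zbtb8os (0.79). The points share 2 libraries and differ in depth, and the coefficients are a description only.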

How the data were processed

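Bone marrow cells of 2 libraries, 1 per genotype, were profiled with the 10x Chromium 3′ kit, per the labels. The values are UMI counts per gene and cell barcode, deposited by the authors as filtered matrices and not normalized. Per the file headers they were made with Cell Ranger 6.0.0, and the submitters' processing notes name Cell Ranger 6.0, Seurat and the builds GRCm38 and mm10. The gene annotation and the transgene sequence in the reference are not given in the sources used here.

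Barcodes with at least 500 UMIs, at least 200 genes and under 10% mitochondrial UMIs were kept, and doublets called by Scrublet (0.8% expected per 1000 barcodes) were removed. Cells of both libraries were clustered together in scanpy 1.11.5 (Python 3.11.15) on 2000 variable genes, 30 principal components and 15 neighbours, by Leiden clustering at resolution 1 with seed 0. None of the 10 genes, the pathway list, Gm42418, Myc or MYC entered the clustering. Names came from 17 marker lists, with at least 3 detected markers required. UMIs were summed per class. Intervals are exact at 95% (binomial for shares and ratios of counts, Poisson for levels) and cover counting error only. They were checked on simulated class sums with independent counts, which cannot show the spread between cells. A fold of 1.5 was applied to log2(CPM + 1) for genes with at least 50 UMIs in a class. For shares, cells were thinned to 2000 or 4000 UMIs, leaving out shallower cells. Alternatives covered cluster resolution, cell filters, doublets, scaling and cell naming. Genotypes were compared as single libraries, with no p-value.

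All 10 genes are described. Other pathway genes were named where they had at least 50 UMIs and passed 1.5-fold in mature neutrophils or monocytes, at most 12 by UMIs, and similar genes were the top 5 by Pearson's r. The genes and lists were chosen with earlier results of these data known.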

Additional observations from a re-analysis of the deposited data

Results flagged for a closer look

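Il1r2 had log2 ratios of opposite sign in neutrophil stages, of which those in granulocyte progenitors and immature neutrophils depend on the processing. Its log2 ratio of MYC marrow to the control was 0.34 in granulocyte progenitors against -0.17 in immature neutrophils, a gap of 0.51, and against -0.36 in mature neutrophils, a gap of 0.70. The intervals of the stages lay on opposite sides of 0, but with 1 library per genotype the difference between stages was not tested. Of 12 alternatives, 9 kept the sign in granulocyte progenitors, where the lowest value was -0.18, and 9 kept it in immature neutrophils, where the highest was 0.12.

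Barcodes left out for their mitochondrial share, 1475 in control marrow and 1592 in MYC marrow, held a signal for Pycard that the comparisons above do not use. Its level there was 59.0 CPM (238 UMIs) in control marrow and 132 CPM (596 UMIs) in MYC marrow, a log2 ratio of 1.17 (0.95 to 1.39). Of the other genes in these barcodes, which were put in no class, Il1rn was lower (-1.16, -1.91 to -0.44). The other 8 had intervals that included 0, among them Il1b (-0.24, -0.63 to 0.14) and Nlrp3 (0.28, -0.39 to 0.96).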

How the results depend on the processing

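No paired analysis was possible because each genotype has 1 library. Of 720 recomputed values 547 stayed within the main counting interval or, for counts and medians of lists, near the main value. Another 148 moved further, 7 counts fell short when the fold was set at 2, and 18 turned direction. A turn was counted for a ratio, balance or share only where its main interval excluded 0. Turns of other values are thus not among the 18: Il18 in mature neutrophils kept its sign in 6 of 13 alternatives. Values below are log2 ratios, or log2 changes of a balance, MYC library over control, and the cause was not tested. In mature neutrophils Il1b was -1.50 at resolution 2, -1.54 under 5% mitochondrial UMIs, -0.58 with at least 1000 UMIs and 500 genes, -0.92 with doublets kept, -1.09 with median-of-ratios scaling, -1.20 without the 20 most abundant genes, -1.003 with each library clustered on its own, -0.98 with cells named by markers alone, -1.38 without Gm42418 and -0.10 with clusters in the same mix. The last 2 settings were chosen after seeing the data. In the same order of settings, where they moved it, the Il1b to Il1rn balance was 0.38, 0.32, 1.14 and 0.87, then 0.77 on its own clustering, 0.79 by markers and 1.56 in the same mix. The Il1b to Il1r2 balance was -1.08, -1.10, -0.40 and -0.60, then -0.76, -0.71 and 0.059 in the same mix, where it turned direction. Pycard was 2.06 with median-of-ratios scaling.

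In monocytes Il1b was -1.82 at resolution 2, -1.22 with doublets kept and -1.11 as a mean over cells. Pycard was 0.98 under 5% mitochondrial UMIs, 1.01 with median-of-ratios scaling, 0.74 without the 20 most abundant genes, 1.04 on own clustering and 0.74 without Gm42418. Own clustering turned Il18 to 0.32, Casp4 to 0.062 and Gsdmd to 0.070. Il1r2 in granulocyte progenitors became -0.0047 at resolution 2, -0.18 under 5% mitochondrial UMIs and -0.017 with at least 1000 UMIs and 500 genes. In immature neutrophils Il1r2 became 0.12 with at least 1000 UMIs, 0.033 with median-of-ratios scaling and 0.061 on own clustering. Il1f9 there became 0.71 with at least 1000 UMIs, 0.056 with doublets kept, 0.69 on own clustering and 0.33 by markers, and Nlrp3 became 0.057 with at least 1000 UMIs, as Casp4 became 0.026 in mature neutrophils. Without thinning, the difference in the share of mature neutrophils with a UMI was 1.62 percentage points for Il1r2 and 0.85 for Gsdmd. The offset that median-of-ratios scaling subtracted, so that all log2 ratios became higher, was -0.22 in mature neutrophils, -0.20 in immature neutrophils, -0.14 in monocytes and -0.31 in granulocyte progenitors. Depth limits Il18, Nlrp3 before the mature stage and all genes in macrophages of control marrow.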
